A study of Mus musculus with 16 samples.

Results

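The 40 genes described here make up the folding machinery and the stress signalling of the endoplasmic reticulum (ER), the compartment in which secreted and membrane proteins are made. They were taken from a fixed list of symbols: 11 chaperones and co-chaperones, 6 thiol oxidoreductases, 4 stress sensors and transcription factors, 9 genes of ER-associated degradation, and 10 subunits of the translocon, the TRAP complex and the signal peptidase. All 40 symbols were found among the 22196 genes summed from the deposited transcripts, and 39 were among the 12506 genes that passed the filter on low counts. Pdia6, a thiol oxidoreductase, was listed at 0 counts in all 16 libraries for its only matched transcript, and it is not analysed here. In these libraries 3 counts would correspond to 0.077 to 0.347 CPM (counts scaled to the library total). For all other levels in CPM, the library total was also multiplied by a scaling factor for each library (TMM). This factor was 0.835 in HFD metformin 3 and 1.13 in NCD control 1.

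RNA came from whole inguinal mammary glands of lactating mice, in mid-lactation by the series title and with an age label of postnatal day 16. Diet (NCD, which the labels do not spell out, or HFD, a high fat diet given during lactation) was crossed with treatment (control or metformin, a glucose-lowering drug), which gave NCD control, NCD metformin, HFD control and HFD metformin. Each group has 4 libraries, and the labels give no strain, genotype or dose. No label ties a library to an animal of its own, so the p-values rest on the spread among libraries, some of which may be technical.

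The lumen of the ER folds newly made proteins with chaperones such as BiP, the product of Hspa5, while protein disulfide isomerases form and rearrange their disulfide bonds. When unfolded proteins build up, the membrane sensors IRE1 (Ern1), ATF6 and PERK start the unfolded protein response, which raises chaperone and degradation genes through transcription factors such as XBP1 and cleaved ATF6. The lactating mammary epithelium secretes large amounts of casein and whey protein, all of which enter the ER through the SEC61 translocon.

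Caseins, Wap and Lalba took 57.8 to 66.6% of the counts of a library, so the members were measured in the remainder. Totals ranged from 8649316 to 39156617 counts, with HFD control 4 (8649316) and HFD metformin 1 (14508606) the shallowest. The gland label was borne out by the summed level of 8 secretory epithelium markers, which was 355000 to 567000 CPM. Other cell types were also present: NCD control 3 had a summed skeletal muscle level of 3180 CPM over 7 markers, against at most 118 CPM elsewhere. Summed adipocyte markers reached 754 CPM in NCD control 3 and 632 to 690 CPM in NCD metformin 2, 3 and 4, against 72.1 to 444 CPM in the other 12 libraries. In bulk tissue, fewer cells of a type and less RNA per cell cannot be told apart.

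Promoter sequence was compared first, since several of these genes are known targets of ATF6 and XBP1 through the ER stress response element (ERSE). Promoters of 300 bases (250 before to 50 after the start of a gene, RefSeq, GRCm38.p6) were at hand for 32 of the 40 members, and those of Manf, Ero1l, Atf6, Hyou1, Derl1, Sec61a1, Ssr2 and Spcs3 were not analysed. The ERSE, searched on both strands as CCAAT, 9 bases of any kind and CCACG, was found in 9 of 32 members (Hspa5, Hsp90b1, Calr, Canx, Creld2, Dnajc3, Pdia6, Derl3 and Syvn1), against 0.137% of the 27025 genes with a promoter. The shorter ERSE-II, searched as ATTGG, 1 base of any kind and CCACG, was found in Herpud1 and Dnajb11 and in 0.0444% of all genes. Both motifs hold the letters CCACG, which alone occurred in 26 of the 32 members and in 35.5% of all genes. These are matches of letters and not measured binding, and copies that differ in any fixed letter were not searched. Since the list was made up with known targets in it, its share and that of all genes are no independent comparison.

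The 250 bases before the start are printed for the best known targets with a match, and for 2 members called lower with metformin that had none. They are in the direction of the gene, 5′ to 3′, with the fixed letters of a match in capitals. A match on the opposite strand reads CGTGG before ATTGG.
Hspa5 promoter: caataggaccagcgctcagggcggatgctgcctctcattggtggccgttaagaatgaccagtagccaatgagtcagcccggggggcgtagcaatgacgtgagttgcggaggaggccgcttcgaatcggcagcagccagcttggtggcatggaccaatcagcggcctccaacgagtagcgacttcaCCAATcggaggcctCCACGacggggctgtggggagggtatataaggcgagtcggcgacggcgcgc
Hsp90b1 promoter: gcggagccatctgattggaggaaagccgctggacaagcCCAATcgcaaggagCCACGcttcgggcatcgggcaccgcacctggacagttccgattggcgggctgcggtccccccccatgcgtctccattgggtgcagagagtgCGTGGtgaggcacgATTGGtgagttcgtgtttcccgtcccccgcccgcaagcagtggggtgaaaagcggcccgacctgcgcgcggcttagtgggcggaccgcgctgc
Calr promoter: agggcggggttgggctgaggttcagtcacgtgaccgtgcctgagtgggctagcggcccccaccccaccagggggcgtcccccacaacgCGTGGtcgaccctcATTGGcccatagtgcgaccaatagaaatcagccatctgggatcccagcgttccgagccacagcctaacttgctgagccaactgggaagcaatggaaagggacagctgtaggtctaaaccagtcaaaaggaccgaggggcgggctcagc
Derl3 promoter: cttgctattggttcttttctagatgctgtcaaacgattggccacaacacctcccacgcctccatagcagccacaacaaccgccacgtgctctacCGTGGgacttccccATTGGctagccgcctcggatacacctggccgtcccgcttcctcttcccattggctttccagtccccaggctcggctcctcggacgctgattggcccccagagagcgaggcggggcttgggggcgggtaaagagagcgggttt
Herpud1 promoter: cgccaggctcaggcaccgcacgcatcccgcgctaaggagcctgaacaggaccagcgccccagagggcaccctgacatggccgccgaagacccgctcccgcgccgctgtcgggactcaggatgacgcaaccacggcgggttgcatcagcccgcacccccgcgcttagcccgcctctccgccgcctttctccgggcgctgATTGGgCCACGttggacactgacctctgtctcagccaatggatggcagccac
Sel1l promoter: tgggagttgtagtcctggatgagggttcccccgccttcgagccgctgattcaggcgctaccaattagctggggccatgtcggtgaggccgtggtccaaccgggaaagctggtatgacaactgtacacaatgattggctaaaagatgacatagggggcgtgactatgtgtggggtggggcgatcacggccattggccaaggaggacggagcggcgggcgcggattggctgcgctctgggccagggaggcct
Edem3 promoter: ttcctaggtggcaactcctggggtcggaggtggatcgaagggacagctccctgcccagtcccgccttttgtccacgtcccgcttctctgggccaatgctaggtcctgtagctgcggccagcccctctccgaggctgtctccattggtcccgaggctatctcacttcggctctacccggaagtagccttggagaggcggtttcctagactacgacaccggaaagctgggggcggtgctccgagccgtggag

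The Hspa5 promoter lay at chr2:34771840-34772089 on the plus strand, that of Hsp90b1 at chr10:86705445-86705694 on the minus strand, and that of Calr at chr8:84846932-84847181 on the minus strand. The other 4 were at chr10:75893148-75893397 (plus, Derl3), chr8:94386179-94386428 (plus, Herpud1), chr12:91849158-91849407 (minus, Sel1l) and chr1:151755124-151755373 (plus, Edem3). Counted from the start of the gene, the first base of the ERSE was at -65 in Hspa5, -162 in Calr and -156 in Derl3, and Hsp90b1 held 2, at -212 and -107. The ERSE-II of Herpud1 began at -52. Sel1l and Edem3 held neither motif in this window.

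Members differed widely in level. Between genes, levels are compared as CPM per kilobase of effective coding length, averaged over the 16 libraries. Ssr4, a subunit of the TRAP complex that assists translocation, stood highest at 1010 ± 191 CPM per kilobase (SD, n = 16), followed by Ssr2 (295 ± 60.7), another TRAP subunit, and P4hb (265), the main protein disulfide isomerase. Among the 11 chaperones the order per kilobase began with Calr (145), a lectin chaperone of glycoproteins, Hspa5 (137), and Manf (119), a small secreted ER protein. At the low end were 2 stress sensors, Atf6 (4.38) and Ern1 (1.47), and the disulfide isomerase Pdia5 (0.773). The transcription factor Xbp1 came next after the translocon subunit Sec61b (212), at 183 CPM per kilobase. Calr and Hspa5 are closer to each other than their spread over libraries, and so are Sec61g (122), Spcs2 (121) and Manf.

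Within the NCD groups, many of the 11 chaperones shared the library where they stood highest or lowest. Hspa5, Hsp90b1 and Calr, at a mean of 215, 151 and 141 CPM, weigh most in the sum of the 11. The summed level of the chaperones, in CPM, was 507, 569, 813 and 693 in NCD control 1 to 4, and 766, 728, 1100 and 832 in NCD metformin 1 to 4. In HFD control 1 to 4 it was 705, 591, 743 and 552 CPM, and in HFD metformin 1 to 4 it was 621, 806, 878 and 623 CPM. NCD metformin 3 was the highest library of all and NCD control 1 the lowest, and NCD control 3 overlapped the metformin group. NCD control 3 was highest of its group for 10 of the 11 chaperones and NCD control 1 lowest for 10, while NCD metformin 3 was highest of its group for 8. The summed level of ER-associated degradation spread less, at 130 to 161 CPM over all 16 libraries, although single members of that role varied widely. The summed translocon, TRAP and signal peptidase level was 368 CPM in HFD control 4, the shallowest library, and 396 to 597 CPM in the other 15.

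Members of ER-associated degradation were both the steadiest and the most variable of the 39 tested. The coefficient of variation of CPM over the 16 libraries ran from 8.63% for Derl1, a membrane channel subunit of ER-associated degradation, to 45.1% for its relative Derl3. The lectin chaperone Canx (9.76%), the BiP co-chaperone Dnajc3 (10.4%) and P4hb and Edem1 (11.6% each) came next. Edem3 (44.4%), Herpud1 (41.6%), Hyou1 (37.3%) and Manf (36.5%) varied most after Derl3. Herpud1, a membrane protein that assembles the HRD1 complex, was at 5.25, 5.33, 12.3 and 5.43 CPM in NCD control 1 to 4 and at 10.7, 11.7, 14.3 and 6.43 CPM in NCD metformin 1 to 4. On HFD it was at 14.7, 6.07, 14.1 and 10 CPM without metformin, while the metformin libraries had 18.2, 12.1, 4.34 and 10.4 CPM. All 4 groups overlapped, and Herpud1 was called in none of the 7 comparisons.

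**Figure D1:**
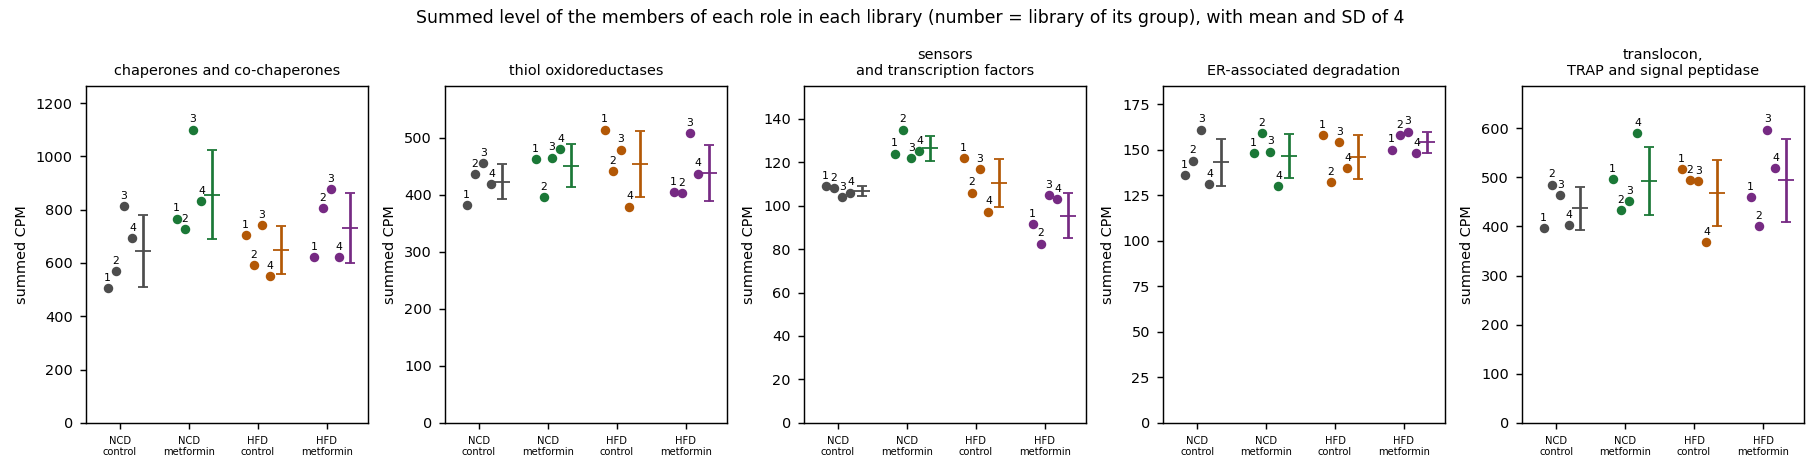
Summed CPM of the members of each role (y axis, from 0) in each library of the 4 groups (x axis); points carry the library number of their group, and the bar beside them is the mean and SD of 4. Chaperones run from 507 CPM in NCD control 1 to 1100 CPM in NCD metformin 3, and the sensors and transcription factors are above NCD control in all 4 NCD metformin libraries, a sum that Xbp1 dominates.

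Metformin on the NCD diet changed 5 of the 39 tested members (edgeR, adjusted p under 0.05): Manf and Atf6b rose, and Sel1l, Ero1l and Edem3 fell. Of all 12506 genes tested, 10% were called in this comparison, 4.01% higher and 6.03% lower, so the members were called at a share near the background. More members pointed up than down: 28 had a log2 fold change above 0 and 11 below, with a median of 0.28 against -0.003 over all genes. At an unadjusted p under 0.05, 13 members were higher and 5 lower, against 12.5% and 15.4% of all genes. The libraries of the 2 NCD groups did not overlap in 13 members, 9 higher and 4 lower, against 8.73% and 9.82% of all genes.

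Manf, which binds BiP and is secreted under ER stress, rose among the chaperones. It stood at 15.2, 17.2, 29.9 and 21.4 CPM in NCD control 1 to 4, and at 36.3, 30, 51.1 and 37.7 CPM in NCD metformin 1 to 4. All 4 metformin libraries were above all 4 controls, although NCD control 3 (29.9) and NCD metformin 2 (30) nearly met. The log2 fold change was 0.89 ± 0.238 (SE, adjusted p = 0.0306). Manf is at chr9:106838312-106891979 (GRCm38), minus strand.

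The other 10 chaperones did not pass the test, and 8 of them had a fold change above 0. Hspa5, the master chaperone of the ER, was at 132, 145, 252 and 195 CPM in NCD control 1 to 4 and at 243, 229, 381 and 269 CPM in NCD metformin 1 to 4. NCD control 3 lay inside the metformin range, and NCD metformin 3 stood well above its group. The log2 fold change of Hspa5 was 0.63 ± 0.213 (adjusted p = 0.0678), but 0.01 with counts rebuilt from the deposited TPM. Calr had group means of 122 ± 23.4 and 178 ± 52.3 CPM (SD, n = 4 each), with no overlap, and a log2 fold change of 0.54 (adjusted p = 0.07). Hsp90b1, the ER form of HSP90, had 0.33 (adjusted p = 0.326), and the lectin chaperone Canx -0.09 (adjusted p = 0.627). Without NCD metformin 3, the log2 fold change was 0.45 for Hspa5, 0.31 for Calr and -0.06 for the chaperone Hyou1, which was 0.30 with it.

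Ero1l, the oxidase that recharges protein disulfide isomerase, fell, and no isomerase was called. Ero1l was at 24.9, 22.4, 22.4 and 17.8 CPM in NCD control 1 to 4 and at 15.6, 11.4, 11.7 and 14.4 CPM in NCD metformin 1 to 4. Every metformin library was below every control, and the log2 fold change was -0.72 ± 0.164 (adjusted p = 0.0182). Among the isomerases, Pdia3, which works with calnexin and calreticulin, averaged 63.5 ± 11.8 and 87.0 ± 14.3 CPM (SD, n = 4 each) without overlap, a log2 difference of 0.45 (adjusted p = 0.063). Pdia4 had 0.40 (adjusted p = 0.111), also without overlap. P4hb was at 318 ± 24.9 and 325 ± 34.9 CPM, a difference of 0.03 (SE 0.122, adjusted p = 0.892). Ero1l is at chr14:45283087-45318771, minus strand.

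Of the 4 sensors and transcription factors, 1 was called. Atf6b, a relative of ATF6 that is cleaved in the same way, was at 14.9, 14, 15 and 14.5 CPM in NCD control 1 to 4, and at 18.4, 21, 22.9 and 15.6 CPM in NCD metformin 1 to 4. The controls spread from 14 to 15 CPM and all 4 metformin libraries were above them, by least in NCD metformin 4. The log2 fold change was 0.42 ± 0.111 (adjusted p = 0.0309). Atf6 itself had 8.08, 5.85, 7.08 and 8.86 CPM without metformin on NCD, against 6.40, 4.45, 3.06 and 5.82 CPM with it, with 1 metformin library inside the control range and a log2 difference of -0.60 ± 0.220 (adjusted p = 0.0891). Xbp1 was at 82.6, 84.9, 79 and 77.6 CPM in NCD control and at 95, 106, 93.4 and 101 CPM in NCD metformin. These groups did not overlap either, yet the log2 difference of 0.28 ± 0.119 did not pass (adjusted p = 0.133). The longest coding sequence listed for Xbp1 has 804 bases, and the splicing of its RNA by IRE1 was not measured. Ern1, which encodes IRE1, had -0.21 (adjusted p = 0.602). Atf6b is at chr17:34647146-34655074, plus strand.

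ER-associated degradation had 2 of 9 members called, both lower. Sel1l, the scaffold of the HRD1 ubiquitin ligase, was at 13.7, 12.1, 11.2 and 15.5 CPM in NCD control and at 10, 7.66, 6.46 and 9.34 CPM in NCD metformin. No metformin library reached a control, with a log2 fold change of -0.65 ± 0.147 (adjusted p = 0.0182). Its partner ligase Syvn1, which encodes HRD1, had 0.37 (adjusted p = 0.182). Edem3, a mannosidase that marks glycoproteins for disposal, was at 12.4, 13.9, 16.0 and 13.1 CPM in NCD control. In NCD metformin it was at 8.77, 3.18, 1.51 and 6.24 CPM, all below the controls and spread over a wide range. Its log2 fold change of -1.49 ± 0.371 (adjusted p = 0.0243) was the lowest of the 39 members. The related Edem1 and Edem2 had -0.09 (adjusted p = 0.679) and 0.42 (adjusted p = 0.168). Derl3, a channel subunit of the same pathway, averaged 3.73 ± 0.859 and 2.37 ± 0.207 CPM (SD, n = 4 each), a log2 difference of -0.66 (adjusted p = 0.0933) without overlap. Sel1l is at chr12:91806043-91849157, minus strand, and Edem3 at chr1:151755371-151822051, plus strand.

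None of the 10 translocon, TRAP and signal peptidase members was called, although 8 had a fold change above 0 and 5 were higher at an unadjusted p under 0.05, against 49.7% and 12.5% of all genes. Ssr1 was at 16.6, 18.5, 22.9 and 22.6 CPM in NCD control and at 31.5, 26.5, 28 and 25 CPM in NCD metformin. The groups did not overlap, and the log2 difference was 0.46 ± 0.144 (adjusted p = 0.0518). Ssr2 had 0.49 (adjusted p = 0.0583) and Sec61g, the small subunit of the translocon, 0.50 (adjusted p = 0.0807), both without overlap. For the other TRAP subunits, Ssr3 had -0.04 (SE 0.142) and Ssr4 -0.05 (SE 0.192), and the difference between subunits was not tested. Spcs2, a signal peptidase subunit, averaged 36.5 ± 5.30 and 50.6 ± 9.66 CPM with overlap, a log2 difference of 0.47 (adjusted p = 0.131), while Spcs1 had 0.06 (adjusted p = 0.797).

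**Figure D2:**
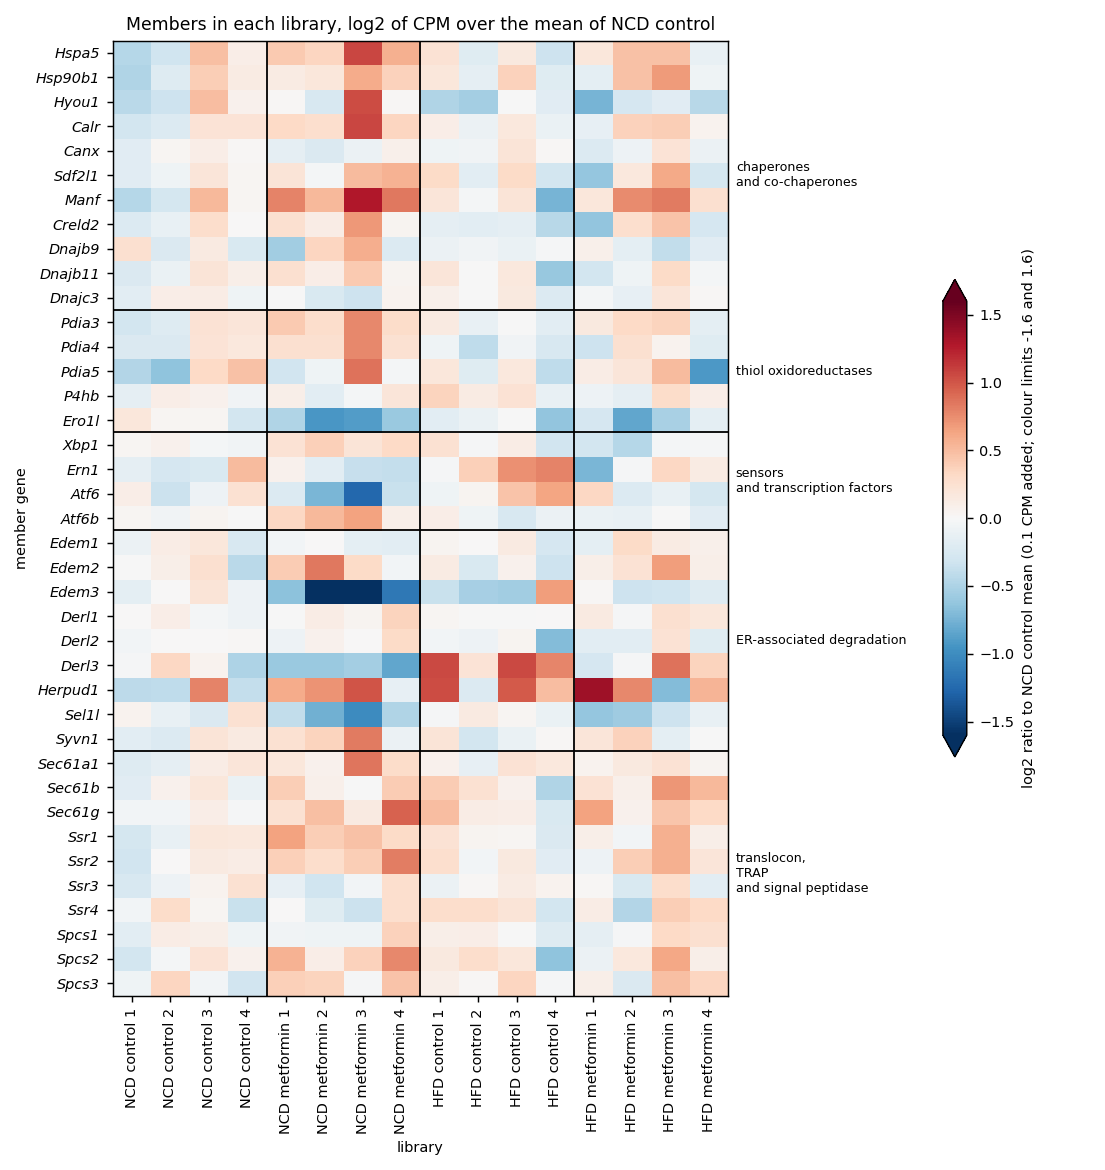
Each row is a tested member, grouped by role, and each column a library; colour is the log2 ratio of its CPM to the NCD control mean, with 0.1 CPM added, and ratios past 1.6 in either direction take the end colour. Manf is above the NCD control mean in all 4 NCD metformin libraries, where Sel1l, Ero1l and Edem3 are below it, and NCD control 1 is below it for 10 of the 11 chaperones.

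The call count in this comparison depended on single libraries, among the members and over all genes. It was 0 members without NCD control 1 and also without NCD metformin 2. It was 1 (Edem3) without NCD metformin 3, and 3 without NCD control 2 or without NCD control 4. Of all genes, 1255 were called with all libraries, 384 without NCD control 1, 180 without NCD metformin 2 and 564 without NCD control 2. Sel1l and Ero1l kept their call in 23 of 26 alternative analyses, Edem3 in 22, Manf in 20 and Atf6b in 16. Without NCD control 3, the library with muscle RNA, 5 members were called, 4 of them shared with the full set of libraries: Atf6b was lost and Hspa5 gained. Of other cell types, 5 of 6 endothelial markers were higher with metformin on NCD at an unadjusted p under 0.05 and 1 was called, with summed levels of 48.5 to 67.4 CPM in NCD control and 60.9 to 106 CPM in NCD metformin. The summed plasma and B cell markers, cells rich in these genes, were at 46.8 to 128 and 30.3 to 104 CPM, with 0 of 10 called. Of 6 fibroblast markers 5 were below 0 and 1, Pdgfra, was called lower (-1.09, adjusted p = 0.0394), with summed levels of 328 to 343 CPM in NCD control and 212 to 334 CPM in NCD metformin. All 7 macrophage markers were below 0, with a median of -0.21, 0 called, and sums of 67.6 to 83.9 and 58.8 to 73.0 CPM. Of 7 skeletal muscle markers 6 were called lower, with sums of 0.835 to 3180 CPM in NCD control and 0.610 to 23.2 CPM in NCD metformin. All 7 adipocyte markers were above 0, with a median of 0.47, 0 called, and sums of 72.1 to 754 CPM in NCD control and 241 to 690 CPM in NCD metformin. No endothelial, adipocyte, fibroblast or macrophage marker was at 0 in any library, and the part of these cells in the member results was not tested.

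Coding length moved with this comparison. Over all genes the median log2 fold change was 0.126 for coding lengths of 144 to 1038 bases and -0.138 for lengths of 1896 bases or more. Of the called members, those that rose have 540 (Manf) and 2130 (Atf6b) coding bases, and those that fell 1395 (Ero1l), 2373 (Sel1l) and 2844 (Edem3). The members had medians of 0.258 in the short and 0.106 in the long class. With a length trend removed from each library, the same number of members, 5, was called, and Manf, Atf6b, Sel1l, Ero1l and Edem3 were each still past the threshold, with log2 fold changes of 0.76, 0.49, -0.55, -0.71 and -1.36.

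Metformin on the HFD diet gave no called member (0 of 39, edgeR; DESeq2 also called 0), where 0.168% of all genes were called. At an unadjusted p under 0.05, which 12.8% of all genes passed, Manf was higher and Sel1l and Derl3 lower. Sel1l was at 12.9, 14.5, 13.4 and 12.2 CPM in HFD control and at 8.54, 8.84, 10.4 and 12.1 CPM in HFD metformin, the only member whose groups did not overlap, where 6.65% of all genes did not. Its log2 difference was -0.41 ± 0.149 (adjusted p = 0.26). Manf was at 23.9, 20.4, 24.1 and 12.5 CPM in HFD control and at 23.8, 35.3, 37.3 and 25 CPM in HFD metformin, with a log2 difference of 0.57 ± 0.239 (adjusted p = 0.328). Here the lowest metformin library lay inside the control range.

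The other 3 members called on NCD did not pass on HFD. Ero1l was at 19.4, 20.3, 21.8 and 14.1 CPM against 18.2, 12.3, 15.2 and 19.7 CPM, a log2 difference of -0.22 ± 0.165 (adjusted p = 0.615). Edem3 was at 10.8, 9.56, 9.39 and 22 CPM in HFD control and at 14, 11, 11.1 and 12 CPM in HFD metformin. The level of 22 CPM came from HFD control 4, the shallowest library, and the log2 difference was -0.07 ± 0.366 (adjusted p = 0.961). Atf6b had a log2 difference of -0.03 ± 0.114 (adjusted p = 0.939), with 13.9 ± 1.46 and 13.6 ± 0.676 CPM (SD, n = 4 each). Hspa5 had 0.29 (adjusted p = 0.616). The median over the 39 members was 0.065.

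**Figure D3:**
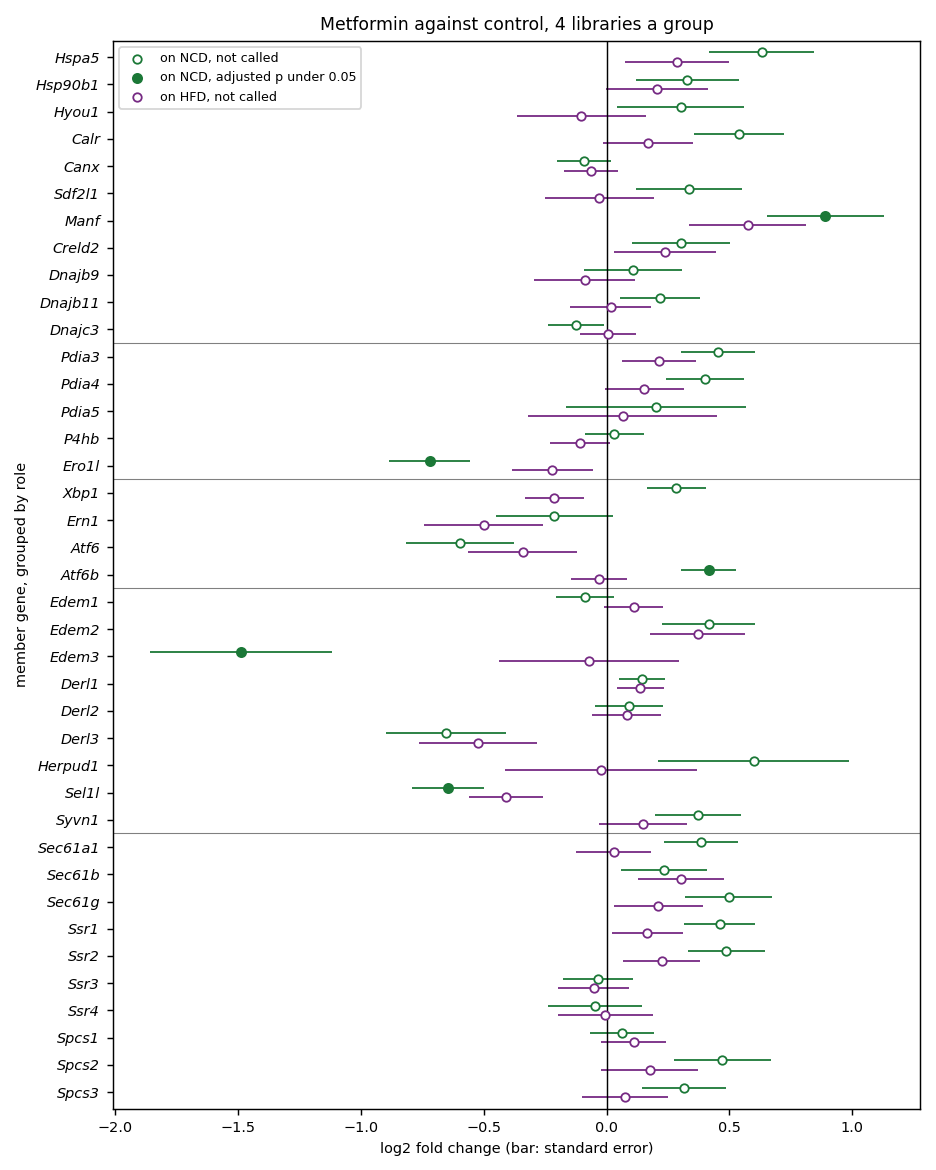
Log2 fold change of metformin against control (x axis, bar: standard error) for the 39 tested members (y axis), on NCD in green and on HFD in purple; filled points passed the adjusted p. Only on NCD are points filled, for Manf, Ero1l, Atf6b, Edem3 and Sel1l, and on HFD Manf and Sel1l point the same way without passing.

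The difference between the diets was itself tested, as an interaction, and no member or other gene passed (edgeR, 0 of 12506; DESeq2 called 22 genes and 0 members). At an unadjusted p under 0.05, which 9.94% of all genes passed, 4 members differed: Xbp1 (-0.50 ± 0.169), Atf6b (-0.45 ± 0.159), Edem3 (1.42 ± 0.519) and Ero1l (0.50 ± 0.233), where a negative value means a lower metformin effect on HFD. Their adjusted p-values were 0.377, 0.387, 0.405 and 0.494. The metformin effect on these genes is therefore not shown to depend on diet.

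Averaged over both diets, metformin changed 5 members, 2 higher and 3 lower, with 11.4% of all genes called (5.82% higher and 5.57% lower). Sel1l fell by 0.528 on the log2 scale (SE 0.105, adjusted p = 0.00709), Manf rose by 0.732 (SE 0.169, adjusted p = 0.0143), and Ero1l fell by 0.471 (SE 0.116, adjusted p = 0.0199). These 3 calls held in all 25 alternative analyses. Derl3 fell by 0.589 (SE 0.171, adjusted p = 0.0376) and Ssr2 rose by 0.356 (SE 0.111, adjusted p = 0.0483), but their calls were lost in 16 and 21 of the 25. Hspa5 (0.46, adjusted p = 0.0574), Pdia3 (0.33, adjusted p = 0.0517) and Ssr1 (0.31, adjusted p = 0.0561) were just outside the threshold. The Hspa5 value depended on the processing: over the 25 alternatives it ranged from 0.03 to 0.61, and it passed in 6. Since this average includes the NCD libraries, it is no independent repeat of the comparison on NCD. In the same average, 2 of 6 fibroblast markers were called lower, Col3a1 (-0.46, adjusted p = 0.0199) and Pdgfra (-0.81, adjusted p = 0.032), as was Myh1 of 7 skeletal muscle markers (-5.92, adjusted p = 0.0301). At an unadjusted p under 0.05, which 14.8% of all genes passed in that direction, 4 of 7 macrophage markers were lower, and the part of these cells in the member results was not tested.

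**Figure D4:**
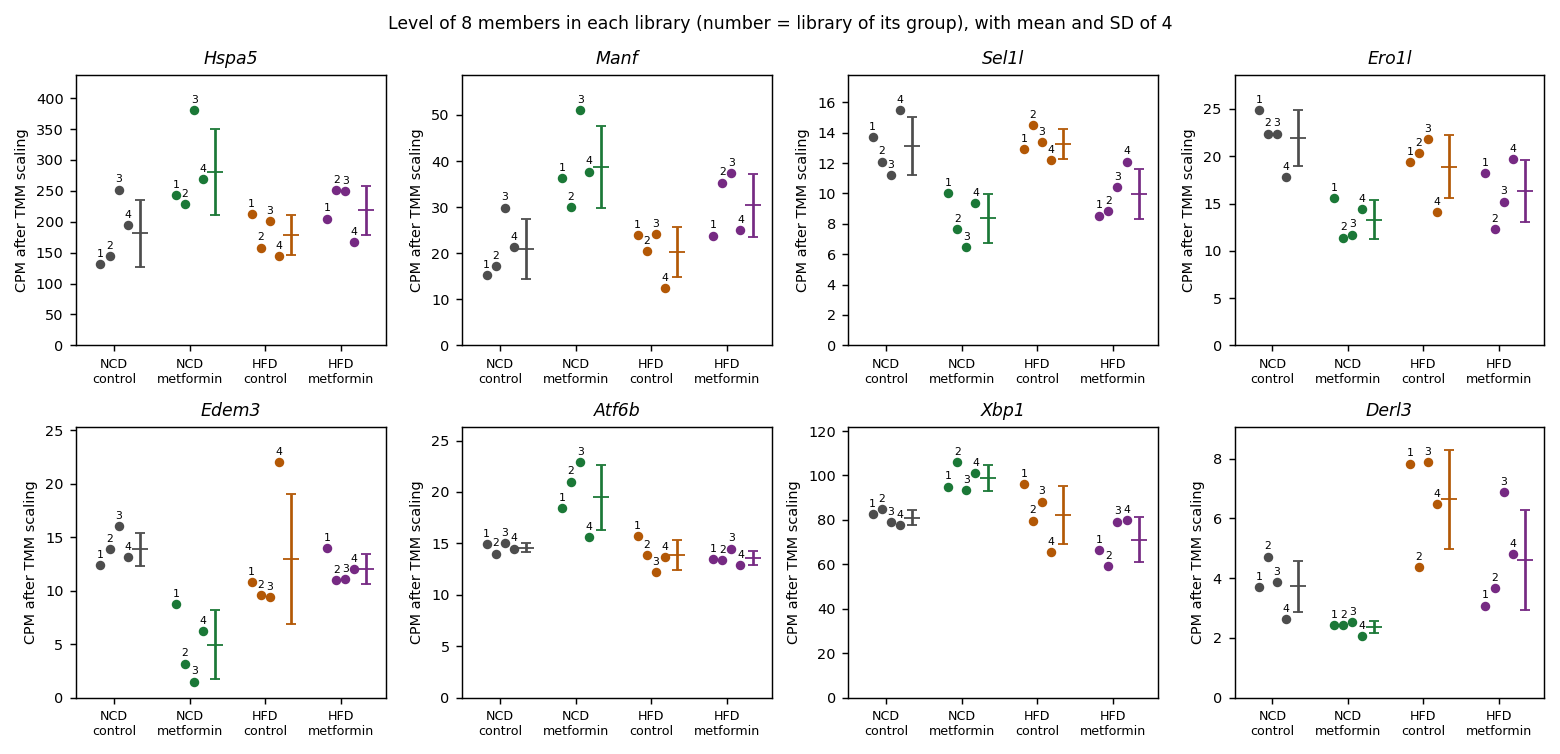
CPM after TMM scaling (y axis, from 0) of 8 members in each library of the 4 groups (x axis), with the library number of its group at each point and the mean and SD of 4 as a bar. Sel1l is lower and Manf mostly higher with metformin on both diets, Edem3 has its lowest group mean in NCD metformin, and Derl3 is higher on HFD.

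Without metformin, HFD against NCD gave no called member: 0 of 39 passed (edgeR; DESeq2 0), with 0.064% of all genes called, and 1 member passed an unadjusted p under 0.05, as did 7.04% of all genes. That member was Derl3, at 3.69, 4.72, 3.87 and 2.63 CPM in NCD control and at 7.83, 4.37, 7.88 and 6.47 CPM in HFD control. HFD control 2 lay inside the NCD range and the other 3 above it, with a log2 difference of 0.84 ± 0.239 (adjusted p = 0.32). Ern1 was at 3.63 ± 1.05 and 5.19 ± 1.29 CPM (SD, n = 4 each), a log2 difference of 0.50 (adjusted p = 0.721). All 10 translocon, TRAP and signal peptidase members had values between 0.006 and 0.167, where 50.5% of all genes were above 0. None of the 10 was called, and their lowest adjusted p was 0.954 (edgeR). Directions in this comparison depended on scaling: 19 members changed sign when only library size was used. Hspa5 was at 181 ± 54.7 and 179 ± 32.8 CPM, a difference of -0.01 ± 0.212.

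With metformin, HFD differed from NCD in 3 members, where 2.36% of all genes were called (1.86% higher and 0.504% lower): Atf6b and Xbp1 were lower and Derl3 was higher. Atf6b was at 18.4, 21, 22.9 and 15.6 CPM in NCD metformin and at 13.5, 13.4, 14.5 and 12.9 CPM in HFD metformin, without overlap, a log2 fold change of -0.52 ± 0.112 (adjusted p = 0.036). Xbp1 was at 95, 106, 93.4 and 101 CPM against 66.3, 59.1, 79.2 and 80 CPM, a fold change of -0.47 ± 0.120 (adjusted p = 0.0489). Both sets of libraries were clear of each other, with NCD metformin also above NCD control. Derl3 was at 2.44, 2.44, 2.53 and 2.06 CPM in NCD metformin and at 3.08, 3.67, 6.89 and 4.80 CPM in HFD metformin, a fold change of 0.97 ± 0.246 (adjusted p = 0.0489). Xbp1 is at chr11:5520659-5525893 and Derl3 at chr10:75893413-75895941, both on the plus strand.

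Those 3 calls were close to the threshold: Xbp1 and Derl3 each lost theirs in 21 of 26 alternative analyses and Atf6b in 9. The count fell to 0 without NCD metformin 2 or 3, and without HFD metformin 1, 2 or 4. It was 1 without NCD control 1, 2 or 3, without HFD control 3, or without NCD metformin 4. Edem3 had a larger difference of 1.283 ± 0.374 and was not called (adjusted p = 0.0755). It was the fourth member without overlap, where 10.2% of all genes did not overlap. The Atf6b and Xbp1 levels in NCD metformin also enter the comparison with NCD control, so both comparisons share those 4 libraries. Of the other members, 9 of 11 chaperones had a value below 0, with a median of -0.27, and none was called.

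Markers of other cell types also moved between these groups. At an unadjusted p under 0.05, 4 of 6 endothelial markers were lower on HFD with metformin and 1, Kdr, was called (-0.82, adjusted p = 0.0475), where 7.14% of all genes were lower at that p. The median of the endothelial list was -0.438, with sums of 60.9 to 106 CPM in NCD metformin and 54.1 to 66.5 CPM in HFD metformin. Of 8 secretory epithelium markers 5 were higher at an unadjusted p under 0.05, where 12.1% of all genes were, with a median of 0.276 and 0 called. Their sums after TMM scaling were 389000 to 419000 CPM in NCD metformin and 430000 to 567000 CPM in HFD metformin, without overlap. The groups did overlap in the unscaled share of counts held by caseins, Wap and Lalba. That share was 60.96 to 63.13% in NCD metformin and 60.7 to 66.56% in HFD metformin. The part of these markers in the Atf6b, Xbp1 and Derl3 results was not tested.

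Averaged over both treatments, HFD raised 1 member, Derl3, by 0.905 on the log2 scale (SE 0.172, adjusted p = 0.0238), with 0.936% of all genes called. The call was lost without HFD control 3 and also without NCD metformin 3, where the count was 0, and the range of the log2 value over 25 alternatives was 0.73 to 0.98. Without NCD metformin 4 the count was 2. Derl3 is also made by plasma cells. Their marker Jchain, which links immunoglobulin chains, had a log2 difference of -0.48 (adjusted p = 0.569) for the same contrast. All 10 plasma and B cell markers tested were at or below -0.05, with 0 called. The part of these cells in the Derl3 result was not tested. Atf6b had -0.29 (adjusted p = 0.0813), Xbp1 -0.22 (adjusted p = 0.192) and Atf6 0.41 (adjusted p = 0.194).

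**Figure D5:**
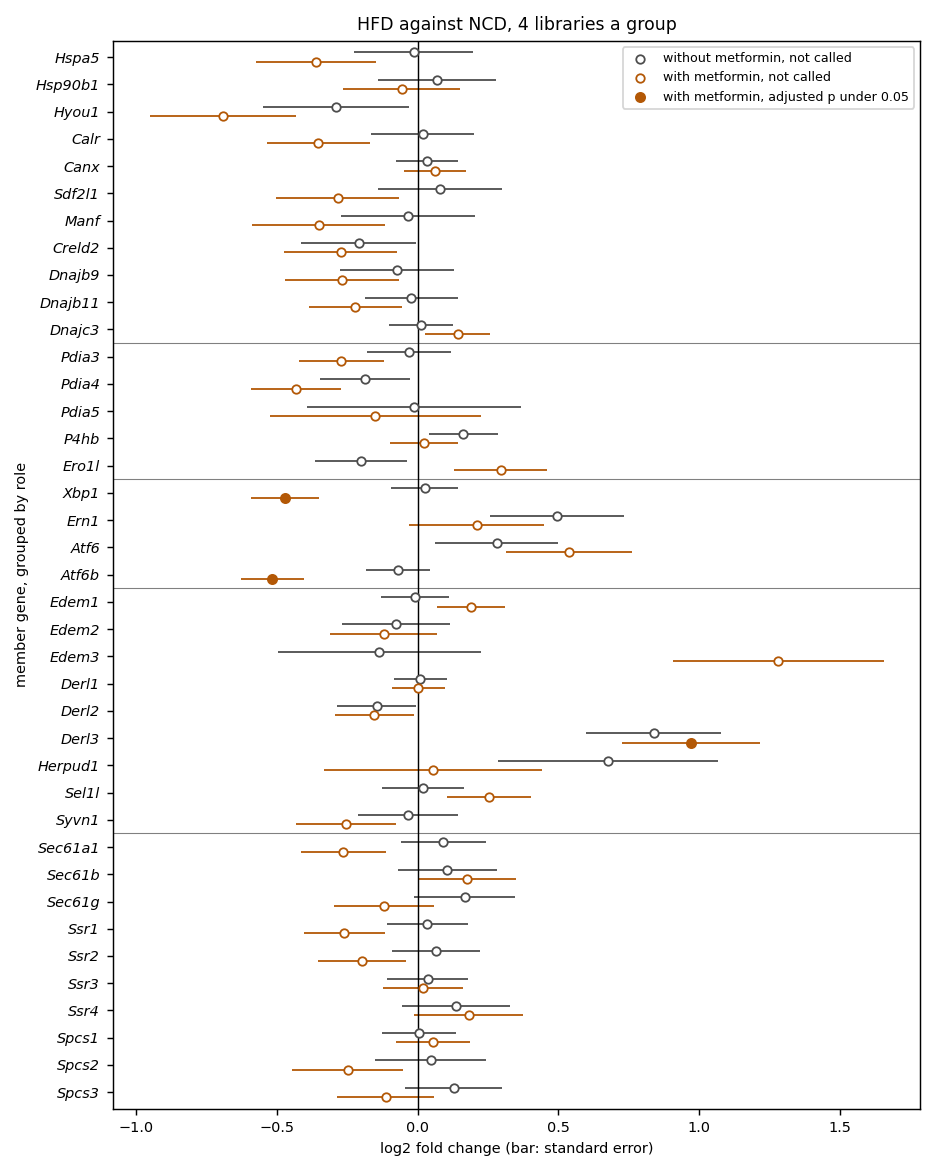
Log2 fold change of HFD against NCD (x axis, bar: standard error) for the 39 tested members (y axis), without metformin in grey and with metformin in orange; filled points passed the adjusted p. Filled points are Xbp1, Atf6b and Derl3 with metformin, and Derl3 is the highest member without metformin.

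Response and promoter motif can be set side by side. On NCD, the 10 tested members with an ERSE or ERSE-II had a median log2 fold change with metformin of 0.316, with 7 above 0 and 0 called. The 21 members whose promoter held neither motif had a median of 0.202, with 15 above 0, and included 3 of the calls: Atf6b, Edem3 and Sel1l. The 8 members without a promoter sequence had a median of 0.308, with 6 above 0. Of these, 1 was called higher (Manf) and 1 lower (Ero1l). Of all genes, 10% were called in this comparison. On HFD the medians of the 3 classes were 0.082, 0.065 and 0.051 in the same order. Derl3, with an ERSE, had a value of -0.66 on NCD where Hspa5, with the same motif, had 0.63. These are counts over a chosen list with no test.

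The other genes of the pathway, from lists of 160 matched symbols, were fitted in the same model, and 153 were tested. With metformin on NCD 14 rose and 4 fell, against the 4.01% and 6.03% of all genes given above. The list of other translocation, signal peptide and oligosaccharyl transfer genes had 7 of 44 higher and 0 lower, with a median of 0.192 and 37 of 44 above 0. Among them were Rpn1, a subunit of the oligosaccharyltransferase (0.56 ± 0.147, adjusted p = 0.0297), and Srp68 (0.43, adjusted p = 0.0319) and Srp19 (0.44, adjusted p = 0.0297), parts of the signal recognition particle. Other chaperones included Fkbp11, a prolyl isomerase of secretory cells, which rose from 57.1 to 101 CPM on average (0.82 ± 0.178, adjusted p = 0.0159), without overlap. Of the other oxidoreductases 2 fell: Ero1lb, the paralog of Ero1l (-0.51, adjusted p = 0.044), and Tmx3 (-0.64, adjusted p = 0.0387).

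Of 25 other sensors and effectors, 2 rose and 1 fell on NCD. Creb3l1, a membrane-bound transcription factor related to ATF6, rose (0.59, adjusted p = 0.0389), as did Bhlha15, a regulator of secretory cells also called MIST1 (0.73, adjusted p = 0.0364). Bax, a promoter of apoptosis, fell (-0.81 ± 0.158, adjusted p = 0.0109). The list of 36 other degradation genes had 3 higher and 1 lower, among them Rnf121 (0.66, adjusted p = 0.0182) and March6 (-0.49, adjusted p = 0.0249), both ER ubiquitin ligases. Averaged over both diets, 15 of the 153 rose and 5 fell, Fkbp11 by 0.69 ± 0.126 (adjusted p = 0.00476) with all metformin libraries above all controls. In the metformin comparison on HFD, the diet comparisons and the interaction, 0 of 153 were called by edgeR. At an unadjusted p under 0.05, the metformin comparison on HFD had 11 higher and 6 lower, 11.1% of the list against 12.8% of all genes.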

How the data were processed

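The authors deposited 1 table a library, in the layout of Salmon's output, which gives every transcript an estimated count and its TPM, per the file headers. The submitters' processing notes name GRCm38.p6, DESeq2 1.28.1 and Salmon 1.3.0 without saying what each was used for. Library kits are per the labels' protocols: RNeasy Mini and NEBNext Ultra II Directional. How Salmon was set is not given in the sources used here. All 56929 transcripts that share their version with GENCODE M21 have a listed length that matches its coding sequence to 3 bases, so untranslated regions were not measured. The deposited TPM values were used only for an alternative, since very short transcripts weigh heavily in gene sums of TPM.

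From the deposited estimated counts, gene sums were formed with GENCODE M21 (GRCm38), which placed 57452 of 58204 transcripts in 22196 genes, and were rounded. The other 752 transcripts held 0.165 to 0.218% of a library's counts and were left out. The test was edgeR's quasi-likelihood test (edgeR 4.0.16, R 4.3.3) after filterByExpr by group and TMM scaling, with 4 group means fitted over 16 libraries. This left 12506 genes, 12 residual and 4.38 prior degrees of freedom, and a biological coefficient of variation of 0.233. Tests were two-sided, with Benjamini-Hochberg adjustment over all genes tested, and a gene was called at an adjusted p under 0.05. On simulated counts of 12506 genes for metformin on NCD, with 200 changed, 91% of changes of 1.0 and 42% of changes of 0.6 (log2) were recovered, with 1 false call among 134. The changed genes were drawn only from better expressed genes, so recovery of low members such as Pdia5 was not measured. They were also fewer than the 1255 genes called in the real comparison, and recovery can depend on that number. Levels are CPM after TMM scaling. No 2 of the 16 libraries agreed within sampling noise (lowest chi-square per degree of freedom 13.38 over 120 pairs). Replicates were numbered in accession order.

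The members, the lists and the added alternatives were chosen with earlier results of these data known. All members could be named, those called and those with the lowest p in full, with up to 4 genes of each related list by p. Of 164 other pathway symbols, 160 matched. Alternatives were scaling by library size or by RLE, no filter, DESeq2 1.42.0, a term for a gap in title numbers, counts rebuilt from TPM, only the groups compared, and each library left out in turn. Added after seeing the data were the removal of the 2 shallowest libraries, of NCD control 3 with HFD metformin 4, and of a lowess trend with coding length.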

Additional observations from a re-analysis of the deposited data

Results flagged for a closer look

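In 13 of 156 sets of 4 libraries (39 members in 4 groups, leaving out Pdia6, which had no count), a single library stood apart from the other 3 of its group by more than Dixon's 95% limit. Chance flags about 1 in 20 sets.

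NCD metformin 3 was the highest of its group in 4 of these: Calr (256 CPM, next 155), Hyou1 (38.4 CPM, next 18.9), Pdia4 (31.3 CPM, next 21.9) and Pdia5 (1.76 CPM, next 0.891). NCD metformin 4 was highest for the translocation genes Ssr2 (108 CPM, next 80.1) and Spcs1 (29.3 CPM, next 21.8). NCD control 3, the library with muscle RNA, was highest for Herpud1 (12.3 CPM, next 5.43), a stress-induced degradation factor, and for Sec61g (6.57 CPM, next 6). NCD control 4 was highest for Ern1 (5.19 CPM, next 3.29).

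HFD control 4, the shallowest library, was lowest for Creld2 (7.03 CPM, next 8.51) and Spcs2 (23.3 CPM, next 40.8) and highest for Edem3 (22 CPM, next 10.8). HFD metformin 3 was highest for Derl2 (15.7 CPM, next 11.9). The member results without each of these libraries are among the alternatives given next, and their part in single genes was not tested further.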

How the results depend on the processing

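Over 7 comparisons and up to 26 alternatives, no member called in the main analysis or an alternative changed sign. The 0 calls for metformin on HFD, for diet without metformin and for the interaction remained 0 throughout. For metformin on NCD, 10 members were called by DESeq2 and 3 with counts rebuilt from TPM, and leaving out a library gave 0 to 6. The calls over all genes moved too, from 1255 to 1790 with DESeq2 and to 671 rebuilt from TPM. For metformin averaged over diets, the counts were 11 with DESeq2, 3 rebuilt from TPM and 3 to 9 with a library left out. Over all genes, edgeR called 1424 in that comparison and DESeq2 1939. For diet with metformin they were 1 with RLE scaling, 1 with no filter, 0 rebuilt from TPM, 0 with only the groups compared, 0 without the 2 shallowest libraries, 0 without NCD control 3 and HFD metformin 4, and 0 to 2 with a library left out. For diet averaged over treatments they were 8 by library size only, 2 with DESeq2, 0 without NCD control 3 and HFD metformin 4, and 0 to 2 with a library left out. Over all genes, diet with metformin had 295 calls (769 with DESeq2) and diet averaged 117 (468 with DESeq2).

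Library size alone moved the median of all genes to -0.163, -0.177 and -0.17 in the 3 diet comparisons. Its split of higher and lower calls was 1 and 3 for metformin on NCD, 1 and 4 for metformin averaged, 0 and 4 for diet with metformin, and 1 and 7 for diet averaged. Under that scaling 19 members changed sign in diet without metformin, 14 in diet averaged and 9 in diet with metformin, none of them called in the main analysis. In diet without metformin, 12 members also changed sign with the term for title numbers. Leaving out NCD control 1 changed the sign of 10 there, as did leaving out NCD control 3. Hspa5 had 0.01 for metformin on NCD when counts were rebuilt from TPM. The term for title numbers and the removal of the coding length trend kept each count within 1.5 times. Single calls still moved with the title term: Xbp1 lost its call in diet with metformin. In metformin averaged, Derl3 and Ssr2 lost theirs and Edem2 gained one. The cause of these shifts was not tested. No paired analysis was possible because the replicate numbers follow accession order and pair no libraries. Depth limits the low members most, such as Pdia5 at about 1 CPM.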
